A study of Mus musculus with 2 samples.

Results

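Olfactory ensheathing cells that carried Npy and Prss56 were picked out of 2 single-cell RNA libraries of mouse brain, 1 from brains with melanoma metastases and 1 from naive brains. UMIs, or unique molecular identifiers, are tags that count each captured RNA molecule once. Barcodes that reached 1000 UMIs and 500 genes, with no more than 20% of UMIs from mitochondrial genes, were kept. A kept barcode was called an Npy type cell if it held at least 4 UMIs over Npy and Prss56, making at least 0.2% of its UMIs, and at least 2 UMIs over Frzb and Fabp7. This rule found 832 of 13745 kept barcodes in the metastasis library (6.05%, Clopper-Pearson 95% interval 5.66 to 6.46) and 1095 of 13995 in the naive library (7.82%, 7.38 to 8.28), or 1927 of 27740 in all. Myelin removal and bead enrichment decided which cells reached the libraries, so these are shares of barcodes and not of brain cells. The levels of these 4 genes chose the cells and are given below as a description. All intervals here cover counting error only.

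The metastasis library came from a pool of 3 C57BL/6J brains after intracranial injection of B16/F10-BrM cells, a mouse melanoma line that grows in the brain, and the naive library from a pool of 3 C57BL/6J brains without tumour cells. All mice were 10 weeks old. Both suspensions were depleted of myelin on a Percoll gradient and enriched with beads against ACSA-2, an astrocyte surface antigen, before about 10000 cells of each were loaded for 10x 3' v3 libraries. More barcodes were kept here than cells were loaded. Each group is 1 library of pooled animals, so a difference between them has no replicate check and no test was made. The submitters state that they exchanged the record titles after the first release, and the groups follow the present titles. Over all barcodes, the melanocyte gene Pmel had 174742 UMIs in the metastasis library and 4774 in the naive library.

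Olfactory ensheathing cells are glia that line the olfactory nerve and the outer layer of the olfactory bulb. They arise from the neural crest, share the transcription factor Sox10 with Schwann cells, and wrap bundles of the axons that olfactory sensory neurons renew throughout life. They secrete growth factors, Wnt antagonists and matrix proteins along this path. Neuropeptide Y, encoded by Npy, is a secreted peptide best known from neurons, and Prss56 encodes a secreted trypsin-like serine protease. Frzb encodes a secreted Wnt antagonist, and Fabp7 encodes brain lipid-binding protein, a fatty acid carrier of radial glia and ensheathing cells.

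Npy lies on chromosome 6 (chr6:49822710-49829507, plus strand) and Prss56 on chromosome 1 (chr1:87183313-87188405, plus strand) of GRCm38. Frzb is at chr2:80411970-80447625 on the minus strand and Fabp7 at chr10:57784881-57788450 on the plus strand. Cldn5, a claudin gene best known from the tight junctions of brain endothelium, is at chr16:18776847-18778262 on the plus strand. The 250 bases before the RefSeq start of Npy, Prss56 and Cldn5 (assembly GRCm38.p6) are shown because Npy was shared by the members while Prss56 and Cldn5 were rarely seen in the same cell. Capitals mark GGGCGG or its reverse complement CCGCCC, the GC box.
Npy, chr6:49822460-49822709, plus strand: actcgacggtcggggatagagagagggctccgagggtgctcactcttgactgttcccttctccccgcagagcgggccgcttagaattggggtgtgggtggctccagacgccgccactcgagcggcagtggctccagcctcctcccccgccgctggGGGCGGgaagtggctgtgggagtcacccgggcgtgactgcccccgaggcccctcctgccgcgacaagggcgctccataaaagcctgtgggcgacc
Prss56, chr1:87183064-87183313, plus strand: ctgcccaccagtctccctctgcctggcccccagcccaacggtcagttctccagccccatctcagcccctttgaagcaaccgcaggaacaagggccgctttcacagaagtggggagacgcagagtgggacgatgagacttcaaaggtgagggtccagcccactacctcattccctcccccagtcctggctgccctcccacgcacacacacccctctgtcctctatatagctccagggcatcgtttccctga
Cldn5, chr16:18776597-18776846, plus strand: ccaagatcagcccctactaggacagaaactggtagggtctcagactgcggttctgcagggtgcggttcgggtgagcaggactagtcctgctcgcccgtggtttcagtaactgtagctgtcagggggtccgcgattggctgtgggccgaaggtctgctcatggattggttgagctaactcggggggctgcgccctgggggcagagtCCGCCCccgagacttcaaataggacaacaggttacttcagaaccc
The GC box occurred 1 time before Npy, 0 times before Prss56 and 1 time before Cldn5, on either strand, and 32.7% of 32851 RefSeq promoters of this length held at least 1. The core Sox motif ACAAAG, held by 16.5% of those promoters, and TATAAA, held by 12.4%, had no match in the 3 windows on either strand, and neither overlaps the GC box. G and C made 69.2% of the bases before Npy, 61.2% before Prss56 and 59.6% before Cldn5, against a median of 52.4% over all the promoters. A match or its absence describes these letters only.

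The members were shallow cells. Their median was 1920 UMIs in the metastasis library (1000 to 17261) and 2313 in the naive library (1016 to 23562), against 2859 and 2821 over all kept barcodes of those libraries. They held a median of 1072 and 1216 genes, and their UMIs summed to 1948813 in the metastasis library and 2983098 in the naive library. Mitochondrial UMIs made a median of 3.17% in metastasis and 3.54% in naive members. None of the member barcodes was shared by both libraries, and 53 kept barcodes were.

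Npy was a dense transcript in these cells. UMIs over Npy and Prss56 ran from 4 to 116 per member with a median of 22 in the metastasis library, and from 4 to 106 with a median of 25 in the naive library. Npy itself was seen in 832 of 832 metastasis and 1094 of 1095 naive members. Prss56 was seen in 381 metastasis and 497 naive members, and the other 451 and 598 qualified on Npy alone. Just inside the limit, 54 metastasis and 57 naive members had 4 or 5 such UMIs. Just outside, 156 metastasis and 169 naive barcodes had 2 or 3 and passed the Frzb and Fabp7 limit.

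The share of members with Prss56, which the rule used, is given beside that in a cell type that should lack it. With each cell thinned to 1000 UMIs, it was seen in 32.9% of metastasis and 30.1% of naive members, against 0.117% of oligodendrocytes in the metastasis library and 0.143% in the naive library. Without thinning the shares were 45.8% and 45.4% of members and 0.450% and 0.540% of oligodendrocytes, whose median depth was 2820 and 3045 UMIs. Npy after thinning was seen in 2.90% of metastasis and 3.29% of naive oligodendrocytes.

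Of 18 further ensheathing genes that the rule did not use, 16 were measured (at least 20 UMIs over both libraries) and 13 were above free RNA. Against all other kept barcodes, 7 of 18 were at least 2-fold higher in both libraries and 1 was lower, beside 2.96% and 1.78% of all genes. In the same comparison 6 of 12 astrocyte markers were higher and 1 was lower, so it does not set the members apart from astrocytes. Against astrocytes, 8 of 16 were higher and 2 were lower, beside 3.44% and 6.1%. Levels are in CPM, the UMIs of a gene summed over the cells of a set and scaled to a common total of UMIs. Sox10 stood at 265 in metastasis and 291 in naive members, S100b, a calcium-binding glial protein, at 765 and 924, and Vtn, which encodes vitronectin, at 1493 and 1688. Ngfr, the p75 receptor classically used to stain ensheathing cells, had 2 UMIs in all metastasis members and 3 in all naive members. L1cam, an axonal adhesion molecule also found on ensheathing cells, had 5 and 4 UMIs. The name rests on the other genes, since RNA of this classical marker was near 0 at this depth.

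Of 12 Schwann markers 9 were measured and 7 were above free RNA. They summed to 1375 CPM in metastasis and 1260 in naive members, of which Mal, a gene oligodendrocytes share, made 746 and 628 and Sox8 made 139 and 111. Among the Schwann genes that were not measured, Prx, which encodes periaxin, had 0 UMIs in metastasis and 1 in naive members, and Gfra3 had 0 and 0. Gfap, the intermediate filament of astrocytes and of some ensheathing cells, stood at 36.4 and 20.8 CPM in members, below 85.6 and 51.6 in free RNA, the pool of barcodes with 10 to 100 UMIs. The endothelial genes Cdh5 (3 and 5 UMIs), Flt1 (7 and 16) and Pecam1 (7 and 13) were nearly absent from metastasis and naive members, while Cldn5 had 1038 and 1781 UMIs.

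RNA of other cell types was present at levels that differed between the libraries. Summed over its marker list, choroid plexus RNA stood at 11095 CPM in metastasis and 15907 in naive members, against 79846 and 219091 in free RNA. Macrophage markers summed to 1050 and 32.9, and melanoma markers to 1137 and 44.9, against 6941 and 438 for melanoma in free RNA. Few genes were measured from the lists for mural cells (4 of 8), fibroblasts (2), neuroblasts (2), neurons (1), olfactory sensory neurons (4), T and NK cells (2) and oligodendrocyte precursors (1 of 6). Oligodendrocyte markers summed to 3091 and 2753, microglial markers to 484 and 308, ependymal markers to 559 and 1162, and astrocyte markers to 4477 and 5223. Of the lists, 8 of 8 melanoma genes had a counting interval of the log2 ratio above 0, and 8 of 8 ependymal genes had one below 0. The part of this RNA in the comparisons below was not tested. The comparison of the libraries is also given for clusters 0 to 3 of the members, described below, where macrophage markers summed to 246 and 12.4 CPM, microglial markers to 260 and 158 and ependymal markers to 316 and 435, but melanoma markers to 1375 and 51.4.

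**Figure D1:**
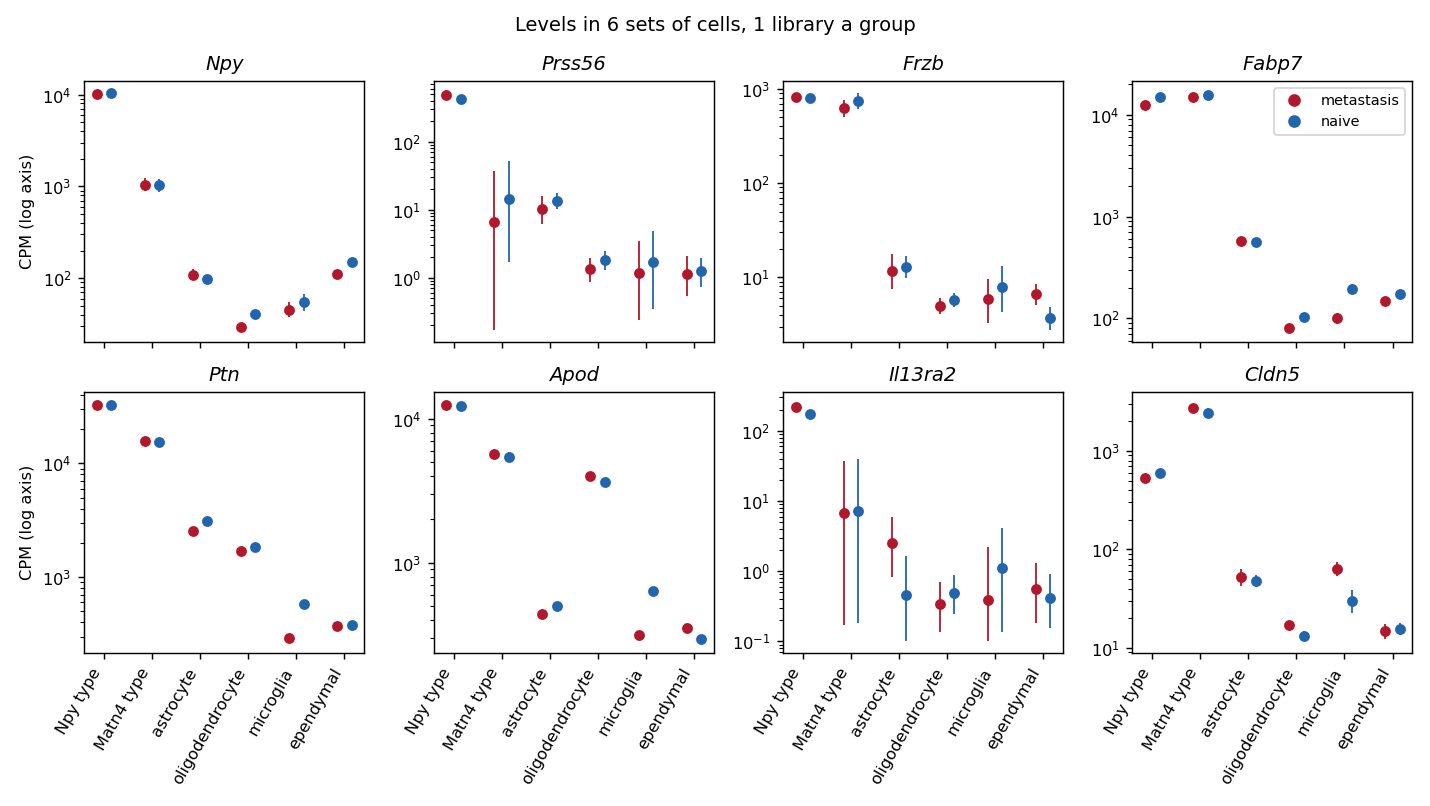
Levels (CPM, log axis) of Npy, Prss56, Frzb, Fabp7, Ptn, Apod, Il13ra2 and Cldn5 in the Npy type cells and 5 other sets of cells, metastasis left of naive, with 95% Poisson intervals. Prss56 stands at 491 and 429 in the Npy type cells and at 10.2 and 13.6 in astrocytes, and Cldn5 is higher in the Matn4 type than in the Npy type.

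The members were not uniform. Graph clustering of both libraries together (resolution 0.5) gave 10 clusters. Clusters 0 to 3, chosen after their levels were seen as the clusters with at least 50 cells of each library and at most 1 marker of another class among their 10 leading genes, held 708 of the metastasis members (85.1%) and 919 of the naive members (83.9%). Their median depth was 1788.5 UMIs in metastasis and 2151 in naive cells, against 4138 and 4595 in the remaining members. The astrocyte limit was also met by 2 to 45 metastasis and 4 to 46 naive cells in each of these clusters. Of the cells in clusters 0 to 3, 0.847% in metastasis and 0.544% in naive fell among the 6% of barcodes with the highest doublet score of their library. Outside these clusters the shares were 55.6% and 63.6%.

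Clusters 4, 5 and 6 carried genes of a second cell type. Cluster 4 (59 metastasis and 81 naive members) was led by oligodendrocyte genes such as Cldn11 and Mag, and 56 and 70 of its members met the oligodendrocyte limit as well. Cluster 5 (25 and 57) was led by the ependymal genes Tmem212 and Ccdc153. Cluster 6 (33 and 14) held Ctss, Fcer1g and Lyz2, genes of macrophages and microglia, and its C1qa level was 3164 CPM in metastasis and 2711 in naive cells. In cluster 0 C1qa stood at 165 and 22.7.

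Within clusters 0 to 3 the members formed a Prss56-rich side and a Cldn5-rich side. These genes helped to form the clusters, so their values are a description. Prss56 stood at 852 CPM in metastasis and 891 in naive cells of cluster 0, at 244 and 297 in cluster 2, and at 29.1 and 6.34 in cluster 1. Cldn5 ran the other way, with 18.1 and 0 in cluster 0, 378 and 218 in cluster 2, and 2599 and 2451 in cluster 1. Npy was present on both sides, at 15038 and 16561 in cluster 0 and 5845 and 5691 in cluster 1. Cluster 2 thus lay between clusters 0 and 1 for all 3 genes in both libraries. The libraries differed in cluster make-up. Cluster 0 held 38.5% of metastasis and 26.5% of naive members, and cluster 1 held 20.3% and 23.7%. Cluster 2 held 16.3% and 24.4%, and cluster 3 held 9.98% and 9.32%.

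Other genes took the side of Prss56. Cpe encodes carboxypeptidase E, which trims peptide hormone precursors such as that of neuropeptide Y, and stood at 2478 in metastasis and 2458 in naive cells of cluster 0 but at 99.0 and 103 in cluster 1. Mgst1, a microsomal glutathione transferase, stood at 2079 and 1897 in cluster 0 and at 72.8 and 85.6 in cluster 1. Il13ra2, a decoy receptor for interleukin 13, had 393 and 390 in cluster 0 and 8.73 and 3.17 in cluster 1. The Wnt-amplifying receptor Lgr6 had 147 and 174 in cluster 0 and 2.91 and 3.17 in cluster 1. Igf1, which encodes an insulin-like growth factor, had 731 and 903 in cluster 0 and 169 and 197 in cluster 1.

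Other genes took the side of Cldn5. Igfbp7, an insulin-like growth factor binding protein, stood at 745 in metastasis and 595 in naive cells of cluster 1, against 30.2 and 16.6 in cluster 0. Agt, which encodes angiotensinogen, stood at 664 and 845 in cluster 1 and 109 and 120 in cluster 0. Clca3a1, of the calcium-activated chloride channel regulator family, stood at 920 and 829 in cluster 1 and 36.3 and 63.5 in cluster 0. Fabp7 was highest of the 4 clusters in cluster 1, at 19170 and 21934, against 12906 and 15632 in cluster 0. Sox10 stood at 338 and 335 in cluster 1 and at 246 and 287 in cluster 0.

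Cluster 3 (83 metastasis and 102 naive members) had a Prss56-rich profile with immediate early and heat shock transcripts on top. Its Prss56 level was 1430 in metastasis and 1155 in naive cells. Fos, an AP-1 transcription factor gene induced within minutes of stimulation, stood at 5161 and 5520 there, against 562 and 514 in cluster 0. Hspa1a, an inducible heat shock protein 70 gene, stood at 1396 and 1617, against 252 and 228. The flow-responsive factor gene Klf2 stood at 436 and 448, against 34.8 and 13.6. Rspo3, a secreted R-spondin that strengthens Wnt signalling, was also highest of the 4 clusters there, at 415 and 471.

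**Figure D2:**
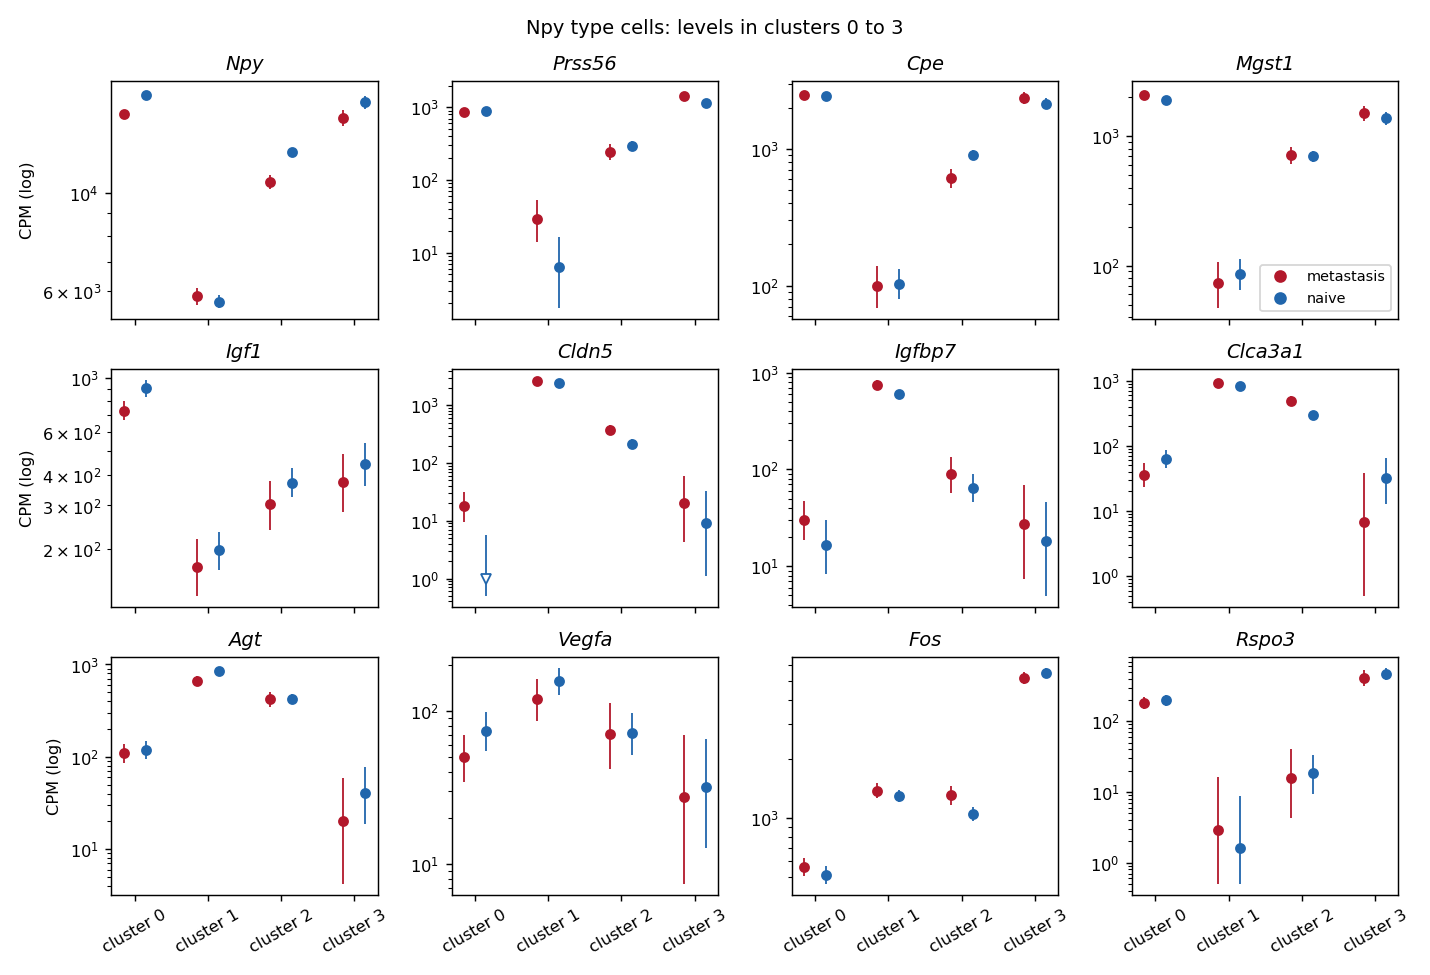
Levels (CPM, log axis) of 12 genes in clusters 0 to 3 of the Npy type cells, metastasis left of naive, with 95% Poisson intervals and an open triangle for a count of 0. Prss56, Cpe and Mgst1 are lowest and Cldn5 and Igfbp7 highest in cluster 1 in both libraries, and Fos and Rspo3 are highest in cluster 3.

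The split can also be described cell by cell, for genes picked from the clusters of these same cells, so it adds no separate support. With each member thinned to 1000 UMIs, Cldn5 was seen in 11 of 274 metastasis members with Prss56 (4.01%, 2.02 to 7.07) and in 6 of 330 naive members with Prss56 (1.82%, 0.670 to 3.92). Among members without a Prss56 UMI, Cldn5 was seen in 174 of 558 in metastasis (31.2%) and 238 of 765 in naive brains (31.1%). By Mgst1, Cldn5 was seen in 4.56% of metastasis and 3.93% of naive members with it, against 42% and 38.2% of those without. Cpe went with Prss56 instead, seen in 80.3% of metastasis and 80.0% of naive members with Prss56, against 41.0% and 40.3% of those without. Igfbp7 went with Cldn5, seen in 42.7% and 37.7% of members with Cldn5, against 5.87% and 5.41% of those without. Matn4, which encodes the matrix protein matrilin-4, was split much less by Prss56, with 35.0% and 33.9% with it against 37.8% and 40.5% without. Cells share their library in each of these counts, so no test was made.

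**Figure D3:**
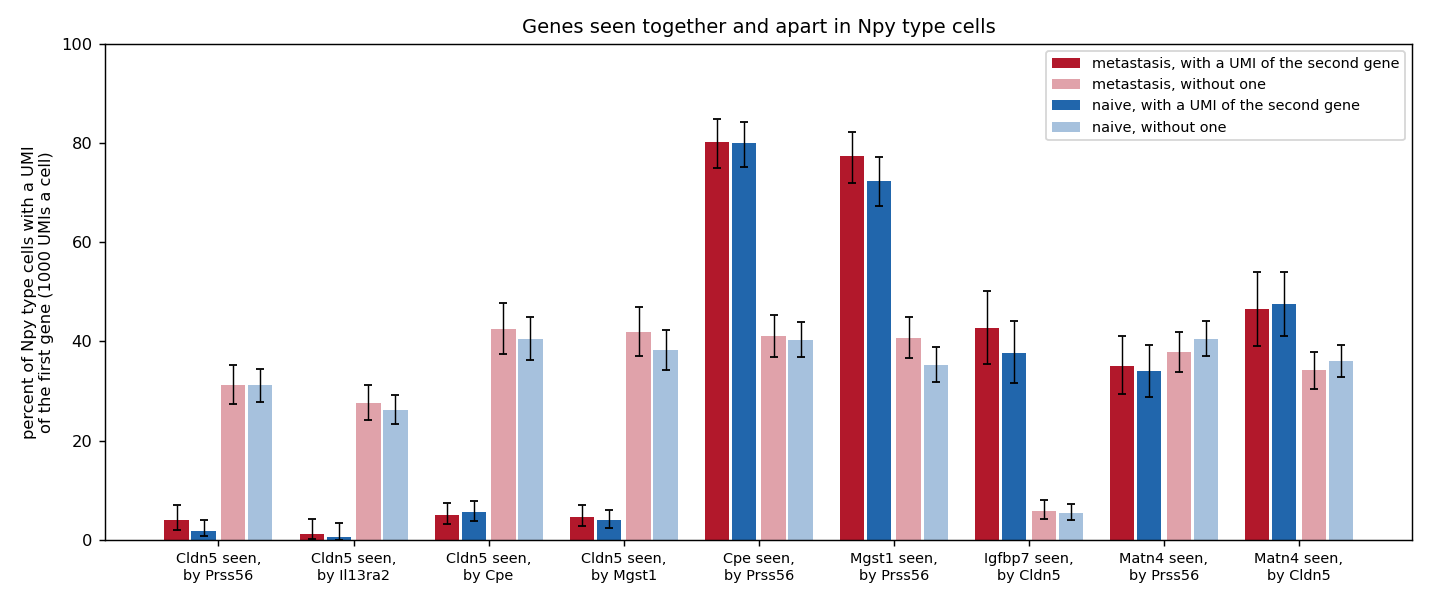
Share of Npy type cells (percent, thinned to 1000 UMIs per cell) with a UMI of the first gene named, among cells with (dark bars) and without (pale bars) a UMI of the second, metastasis left of naive in each shade, with 95% Clopper-Pearson intervals. Cldn5 is seen in 4.01% and 1.82% of cells with Prss56 and in 31.2% and 31.1% of cells without.

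A smaller set of ensheathing cells met a limit on Matn4 and Foxd3 with Frzb or Fabp7 but not the Npy limit, and is called the Matn4 type here (86 metastasis and 71 naive cells). The Matn4 type's limit was also met by 264 metastasis members (31.7%) and 336 naive members (30.7%), which count as Npy type here. The sets were chosen on these genes, so only the other genes are read singly. The counts that follow still hold 2 of the 4 rule genes among the higher, and Matn4 and Foxd3 among the lower. Of 12366 genes measured, 218 (1.76%) were at least 2-fold higher in the Npy type in both libraries and 105 (0.849%) at least 2-fold lower, after 10 CPM were added to both levels. With TMM factors, which moved the median log2 ratio to 0.17 in metastasis and 0.18 in naive libraries, the counts were 301 higher and 60 lower. The Matn4 type sums to few UMIs: 3 UMIs, the most that a count of 0 allows, are 20.1 CPM in metastasis and 21.5 in naive.

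The genes that separated the types most were nearly absent from the Matn4 type. Among them, Il13ra2, Cpe, Mgst1 and Lgr6 were also far lower in cluster 1 of the Npy type than in cluster 0, as given above. Il13ra2 stood at 219 CPM in metastasis and 174 in naive cells of the Npy type, with 1 UMI in each library of the Matn4 type. Tagln3, a transgelin family gene, stood at 210 and 232, again with 1 UMI in each library. Cpe stood at 1396 and 1273 in the Npy type against 87.2 and 129 in the Matn4 type, a log2 ratio of 4.0 and 3.31. Mgst1 stood at 1094 and 881 against 33.5 and 100 (5.03 and 3.14), and Rgs2, a regulator of G protein signalling, at 526 and 477 against 20.1 and 50.1 (4.71 and 3.25). Genes with 0 UMIs in both Matn4 type libraries were Kcnc1, a Kv3 potassium channel gene (179 and 282 UMIs in the Npy type), Abcb1a, the P-glycoprotein drug pump (166 and 259), Plppr5 (202 and 248) and Lgr6 (145 and 236). Ccdc80, Mybpc1 and Spock2 were also among the 15 highest, at 124 and 125, 189 and 173, and 292 and 267 CPM in the Npy type.

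Wnt pathway genes were among those higher in the Npy type. Of 26 measured, 5 were at least 2-fold higher in both libraries (Lgr6, Lef1, Rspo1, Nkd1 and Rspo3) and 1 was lower, the secreted Wnt antagonist Sfrp5. Over all measured genes 1.76% were higher and 0.849% lower. Lef1, a transcription factor at the end of the Wnt pathway, stood at 115 in metastasis and 102 in naive Npy type cells, with 2 and 1 UMIs in the Matn4 type. Rspo3 stood at 116 and 110, with 1 and 0 UMIs. Sfrp5 stood at 40.0 and 39.2 against 188 and 122, but in cluster 1 of the Npy type it stood at 160 and 149. Wnt6, a secreted Wnt ligand, was at similar levels in both types, 270 and 268 in the Npy type against 248 and 336.

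Growth factors went in both directions. Of 13 measured, Ptn and Igf1 were higher and Vegfa was lower, beside 1.76% and 0.849% of all measured genes. Ptn, the heparin-binding growth factor pleiotrophin, stood at 32906 and 32470 in the Npy type against 15815 and 15486 in the Matn4 type. Igf1 stood at 428 and 434 against 73.8 and 107. Vegfa, the main angiogenic factor, stood at 61.6 and 80.1 against 369 and 358, a log2 ratio of -2.58 and -2.16.

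The 10 genes lowest in the Npy type had log2 ratios of -1.76 or below in both libraries. Dhh, the desert hedgehog ligand of Schwann cells, stood at 6.67 in metastasis and 10.1 in naive Npy type cells against 87.2 and 85.9 in the Matn4 type. Ntrk3, the neurotrophin-3 receptor gene, stood at 20.01 and 23.5 against 121 and 157. Cldn5 stood at 533 and 597 against 2711 and 2440 (-2.35 and -2.03), but in cluster 1 of the Npy type it stood at 2599 and 2451. The other 7 of the 10 lowest were Adamts5, Car12, Plekha4, Scn3b, Lipg, Acsbg1 and Vegfa, with log2 ratios between -1.76 and -2.58. Acsbg1 stood at 315 and 372 in the Matn4 type, but at 393 and 320 in cluster 1 of the Npy type. Of 29 matrix genes, Col4a1, Col18a1 and Matn2 were lower and 0 were higher, beside Matn4, whose lower level the choice of the Matn4 type fixed. Of all measured genes 0.849% were lower and 1.76% higher.

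Against astrocytes, the cells that the beads were meant to enrich, the Npy type differed in many more genes. Astrocytes (758 in metastasis and 1643 in naive) were called by Slc1a2, Aqp4, Ntsr2 and Gja1. Of 15251 genes, 524 (3.44%) were at least 2-fold higher in the Npy type in both libraries and 930 (6.1%) lower, where the median log2 ratio of all genes was -0.15 in each library. The 524 include the 4 genes of the rule, and the 930 include Slc1a2, which helped to call the astrocytes. Barcodes that also met another class's limit were not taken out of the astrocytes. Of 8 ependymal markers 7 were among the lower genes, with medians of -3.01 in metastasis and -1.57 in naive. The part of ependymal RNA in the astrocyte set in these counts was not tested. Kctd12, an auxiliary subunit of GABA-B receptors, stood at 2100 in metastasis and 2108 in naive Npy type cells against 49.5 and 64.0 in astrocytes. Aqp1, a water channel, stood at 526 and 437 against 7.14 and 7.01. Apod, the lipid carrier apolipoprotein D, stood at 12491 and 12340 against 439 and 499. Apcdd1, a membrane Wnt inhibitor, stood at 379 and 346 against 9.69 and 10.6, and Igf1 at 428 and 434 against 15.8 and 4.75. Fxyd6, a regulator of the sodium pump, and Fbln2, the matrix protein fibulin-2, had log2 ratios of 5.03 and 4.70 and of 4.73 and 5.35.

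Transcription factors went both ways. Of 27 measured, 6 were higher in the Npy type, among them Sox10, Nr2f2, Alx4, Foxd3 and Runx1, and 6 were lower. Over all measured genes 3.44% were higher and 6.1% lower. Sox10 stood at 265 in metastasis and 291 in naive Npy type cells against 30.1 and 46.6 in astrocytes. Alx4, an aristaless-like homeobox gene of craniofacial neural crest, stood at 55.4 and 41.6 against 2.04 and 2.03. Nr2f2, which encodes the nuclear receptor COUP-TFII, stood at 594 and 654 against 55.1 and 46.6. Sox9 stood at 86.7 and 150 against 740 and 667, and Sox2 at 46.7 and 78.1 against 457 and 500.

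Matrix genes went both ways as well. Of 34 measured, 9 were higher and 4 were lower, beside 3.44% and 6.1% of all measured genes. The basement membrane genes Lama4 (81.1 and 88.5 against 3.57 and 0.678) and Nid1 (128 and 125 against 14.8 and 11.1) were higher. The 4 lower ones were Bcan, Ncan, Hapln1 and Vcan, which encode brain proteoglycans and their link protein, and Bcan stood at 64.1 and 78.4 in the Npy type against 524 and 787 in astrocytes. Ncam1, the neural cell adhesion molecule, stood at 1939 and 2018 against 320 and 358. Of the 8 astrocyte markers that did not call the astrocytes, Gjb6, Fgfr3, Aldh1l1 and Slc1a3 were lower and 0 were higher. The AMPA receptor subunit gene Gria2 stood at 7.18 and 26.1 against 499 and 690, and Cldn10 at 10.8 and 22.8 against 384 and 615.

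Against all other kept barcodes, 652 of 22029 genes (2.96%) were at least 2-fold higher in both libraries and 392 (1.78%) lower. The 652 include the 4 genes of the rule. Among the 20 highest outside the rule, the ratios with nothing added were largest for Il13ra2 (219 in metastasis and 174 in naive Npy type cells against 0.615 and 0.545) and Mybpc1 (189 and 173 against 0.615 and 0.908). Wnt6 stood at 270 and 268 against 3.86 and 4.14. Grin3a, which encodes an NMDA receptor subunit, stood at 261 and 237 against 3.14 and 5.71, and the fibrillar collagen gene Col11a1 at 259 and 220 against 4.46 and 7.06. Brinp3, Sgcd and Mfap3l were also among the 20 highest, with log2 ratios of 6.16 and 5.25, 5.81 and 5.34, and 5.68 and 4.63. Ptn stood at 32906 and 32470 against 769 and 1359.

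Between brains with metastases and naive brains, several of the genes highest in the Npy type had log2 ratios near 0. Among the genes of the rule, whose levels chose the cells under the same limits in both libraries, the log2 ratio of metastasis over naive was -0.02 for Npy (95% interval -0.04 to 0.01), 0.05 for Frzb (-0.04 to 0.14), 0.20 for Prss56 (0.07 to 0.32) and -0.25 for Fabp7 (-0.27 to -0.23). The part of the differing cluster make-up, given above, in ratios over all members was not tested. Outside the rule, Ptn stood at 32906 in metastasis and 32470 in naive members (0.02), Apod at 12491 and 12340 (0.02), Kctd12 at 2100 and 2108 (-0.01), Wnt6 at 270 and 268 (0.01) and Igf1 at 428 and 434 (-0.02). Over 12212 measured genes the median was 0.00, with 117 (0.958%) at least 2-fold higher and 30 (0.246%) at least 2-fold lower in metastasis. In clusters 0 to 3, 63 of 10677 genes (0.59%) were higher and 6 (0.0562%) lower. A gene was called above free RNA where its level in the library with the higher level was at least that of free RNA there. Free RNA summed to 256869 UMIs in metastasis and 271390 in naive, so low levels in it rest on few UMIs. These calls carry no interval. Among the 12212 genes, 8 (0.0655%) were both 2-fold higher and above free RNA, and 6 (0.0491%) were both 2-fold lower and above it. In clusters 0 to 3 these were 2 (0.0187%) and 1 (0.00937%).

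Several gene lists had medians near 0. Of 25 Wnt genes 0 were 2-fold higher or lower, with a median log2 ratio of 0.05. The same held for 13 growth factors (median -0.03), 27 axon guidance and adhesion genes (0.01), 21 proteases and inhibitors (-0.04), and 20 heat shock genes (-0.03). Of 28 matrix genes 0 passed either limit. Over all measured genes 0.958% were 2-fold higher and 0.246% lower, so a count of 0 in lists this small is near that share. Within the 2-fold limits some genes differed by more than counting error. Il13ra2 stood at 219 in metastasis and 174 in naive members (0.33, 0.14 to 0.52). Within cluster 0, which held 38.5% of metastasis and 26.5% of naive members, it stood at 393 and 390. Hes5, a Notch target gene, stood at 573 and 747 (-0.38, -0.49 to -0.28), and Mdk, the growth factor midkine, at 387 and 493 (-0.35, -0.48 to -0.22). Vegfa stood at 61.6 and 80.1 (-0.38, -0.71 to -0.06).

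Interferon response genes stood higher in the members from metastasis brains. The median log2 ratio of 34 measured was 0.54, with 7 at least 2-fold higher and 0 lower, and 25 had a counting interval above 0. Of all 12212 genes, 0.958% were 2-fold higher and 0.246% lower, and 1055 had an interval above 0 and 868 below it. In clusters 0 to 3 the interferon median was 0.48, with 7 genes 2-fold higher (0.59% of all genes were) and 19 intervals above 0. Isg15, a ubiquitin-like protein induced by interferon, stood at 149 CPM in metastasis and 83.8 in naive members (0.83, 0.58 to 1.08). Ifit1 and Ifit3, which encode interferon-induced proteins that bind foreign RNA or assemble on it, stood at 71.8 and 34.2 (1.07, 0.69 to 1.45) and at 124 and 74.4 (0.73, 0.46 to 1.0). Stat2, a transcription factor of the type I interferon response, stood at 33.4 and 17.4 (0.94).

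Free RNA carried these transcripts too. Isg15 stood at 144 CPM in free RNA in metastasis and 7.37 in naive, close to its level in metastasis members but far under it in naive members. Ifit3 stood at 62.3 and 7.37 in free RNA and Ifit1 at 50.6 and 3.68, each below the members of the same library. Of the 34 interferon genes 13 were above free RNA, and of the 7 past 2-fold only Ifi47 was, an interferon-inducible GTPase gene with 24.6 and 6.70 in members and 19.5 and 3.68 in free RNA. Such low levels in free RNA, like those of Isg15, Ifit1 and Ifit3 in naive, rest on few UMIs. Bst2, which encodes a membrane protein that tethers budding viruses, was not, with 152 and 41.9 in members and 292 and 99.5 in free RNA. Free RNA made up an estimated 0.137 of the members' RNA in metastasis and 0.0725 in naive, if all their Ttr, a choroid plexus transcript, came from it. Other list members hardly differed: Ifi27 stood at 693 and 702 (-0.02) and Xaf1 at 88.3 and 83.1 (0.09).

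The interferon genes were unevenly spread over the members. With each cell thinned to 1000 UMIs and summed over the list, a metastasis member held a median of 2 UMIs with a highest of 75, and a naive member a median of 2 with a highest of 44. No UMI of the list was seen in 115 metastasis members (13.8%) and 226 naive members (20.6%). By cluster, Isg15 stood at 311 in metastasis and 162 in naive cells of cluster 1, the Cldn5-rich one, and at 125 and 72.6 in cluster 0. B2m, the light chain of MHC class I, stood at 888 and 422 in cluster 1 and 458 and 281 in cluster 0. Cluster 1 had the highest level of both genes among clusters 0 to 3 in each library, and the metastasis level was the higher one in each of the 4.

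**Figure D4:**
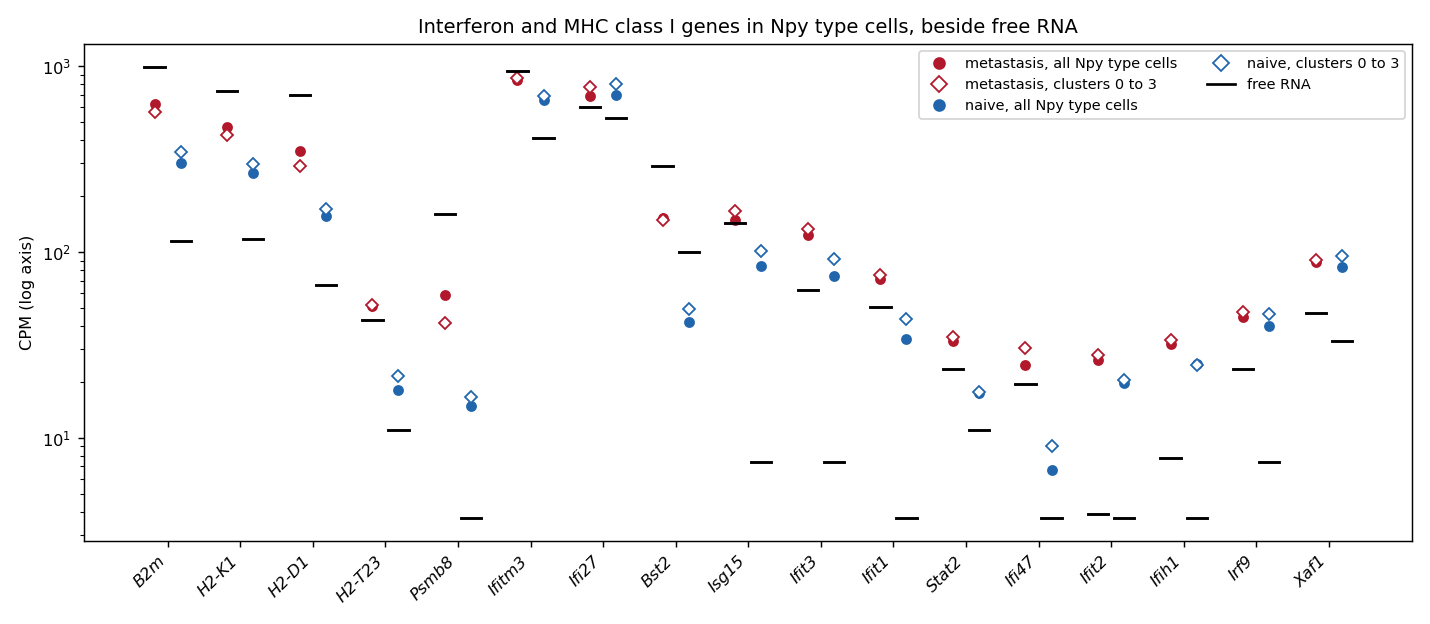
Levels (CPM, log axis) of interferon response and MHC class I genes in all Npy type cells (filled circles), in clusters 0 to 3 (open diamonds) and in free RNA (black bars), metastasis left of naive. Isg15 stands at 149 and 83.8 in the cells and at 144 and 7.37 in free RNA.

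MHC class I genes, which present peptides to CD8 T cells, were higher too. Of 21 measured genes of MHC class I and peptide loading, 5 were at least 2-fold higher and 0 lower, against 0.958% and 0.246% of all measured genes, with a median of 0.45. In clusters 0 to 3 the median was 0.38 with 0 of 20 past 2-fold, against 0.59% of all genes higher. B2m stood at 629 in metastasis and 302 in naive members (1.06, 0.93 to 1.19), and in clusters 0 to 3 the log2 ratio was 0.72. H2-D1, a class I heavy chain, stood at 348 and 156 (1.16), and H2-K1 at 474 and 265 (0.84). All 3 stood below free RNA in metastasis, where B2m was at 997, H2-D1 at 697 and H2-K1 at 736. H2-T23, which encodes the class Ib molecule Qa-1, stood at 51.3 and 18.1 (1.5, 1.01 to 2.01), above its 42.8 and 11.1 in free RNA. Where barcodes of 100 to 300 UMIs stood for free RNA, H2-T23 was not above it.

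The interferon list had a median above 0 in each of 6 classes. Its median log2 ratio was 0.54 in the Npy type, 0.89 in the Matn4 type (10 genes measured), 0.76 in oligodendrocytes, 1.51 in microglia, 1.87 in astrocytes and 2.11 in ependymal cells. At least 2-fold higher were 7 of 34 genes in the Npy type (0.958% of all measured genes) and 3 of 10 in the Matn4 type (3.57%). In oligodendrocytes 15 of 35 were (0.775% of all), in microglia 25 of 35 (2.23%), in astrocytes 31 of 35 (0.973%) and in ependymal cells 32 of 35 (0.913%). The Npy type had the lowest median and the smallest share of these 6 classes, from 1 library per group and with no test of the difference between classes. These ratios are relative to the naive level of each class. Over astrocytes, the list's median log2 ratio in the Npy type was -0.48 in metastasis and 0.86 in naive. Over all other kept barcodes it was -0.03 and 0.75, and over the Matn4 type -0.49 and -0.22. Classes other than the Npy type were not made exclusive of each other, so they can share barcodes.

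**Figure D5:**
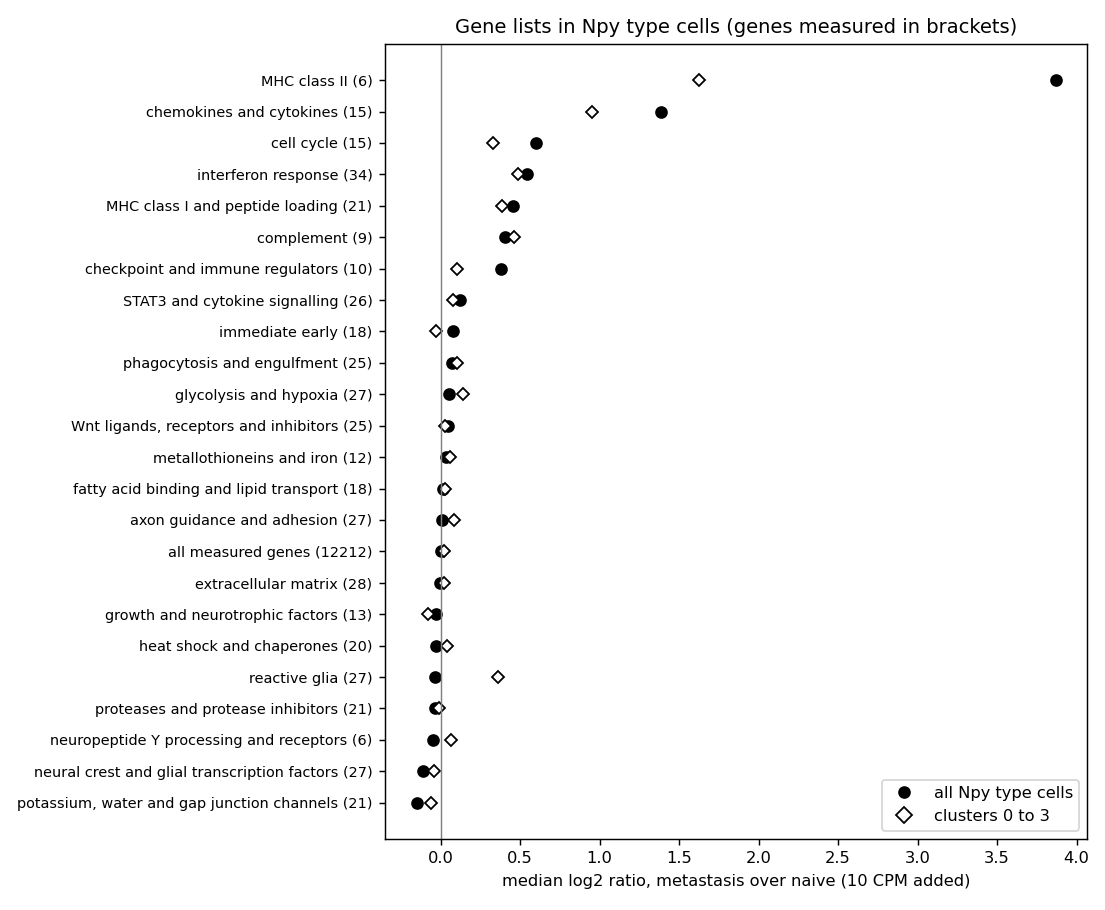
Median log2 ratio of metastasis over naive (10 CPM added) for each gene list in all Npy type cells (filled circles) and in clusters 0 to 3 (open diamonds), with all measured genes as a row of their own. The interferon list lies at 0.54 and 0.48, MHC class II at 3.87 and 1.63, and the Wnt list at 0.05 and 0.03.

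MHC class II, chemokine and myeloid transcripts were higher in metastasis but concentrated in a few barcodes or below free RNA. Over all measured genes 0.958% were 2-fold higher and 0.246% lower. Of 6 MHC class II genes measured, 6 passed 2-fold and 0 were above free RNA. Their median log2 ratio was 3.87, and 1.63 in clusters 0 to 3. Cd74, the invariant chain, had 672 UMIs in metastasis and 23 in naive members, and 81.8% of the metastasis UMIs sat in 10 members. At least 10 class II UMIs were held by 16 metastasis members and 0 naive members, of which 15 also held at least 10 myeloid UMIs and 1 lay in clusters 0 to 3. Of 15 chemokine and cytokine genes 11 were 2-fold higher and 1 lower, with a median of 1.39 that was 0.95 in clusters 0 to 3, and 1 was above free RNA. Lyz2, the lysozyme of macrophages, had 1864 and 56 UMIs, with 71.2% of the metastasis UMIs in 10 members. C1qa had 754 and 244 UMIs over all members and 261 and 45 in clusters 0 to 3.

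Melanocyte transcripts were also higher in metastasis. Pmel stood at 248 CPM in metastasis and 11.1 in naive members, against 1608 and 95.8 in free RNA. Dct had 934 UMIs in 349 metastasis members and 40 in 37 naive members, and 52.0% of the metastasis UMIs lay in 10 members. Pax3, a neural crest factor that melanoma cells also express, had 35 and 8 UMIs in members, at 18 and 2.68 CPM, below 38.9 and 7.37 in free RNA.

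In the other lists of pathways and functions, where 0.958% of all measured genes were 2-fold higher and 0.246% lower, Kcnk2 was above free RNA among the called genes named here and the rest were not. With barcodes of 100 to 300 UMIs as free RNA, Kcnk2 was not above it either. Complement had 3 of 9 higher (C1qa, C1qb and C1qc; median 0.40), and phagocytosis and engulfment 3 of 25 (Cd68, Lgals3 and Ctsd; 0.07). Reactive glia genes had 6 of 27 higher with a median of -0.04. In clusters 0 to 3, 2 of 21 were higher with a median of 0.36, beside 0.59% of all genes. In the STAT3 list 1 of 26 was higher (Cebpb; 0.12), among immediate early genes 2 of 18 (Atf3 and Dusp1; 0.08), among cell cycle genes 1 of 15 (Ube2c; 0.60) and among checkpoint genes 2 of 10 (Lgals1 and Lgals3; 0.38). The transcription factor list had 1 of 27 higher (Pax3; -0.11). Lower were Clu of 18 lipid genes (median 0.02), Mt3 of 12 metallothionein and iron genes (0.03), and Kcnk2 and Slc6a11 of 21 channel genes (-0.15). None of 27 glycolysis genes (0.05) or 6 genes of neuropeptide Y processing (-0.05) passed either limit. These medians stand beside 0.00 over all measured genes.

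Outside the interferon list, few genes stood higher in metastasis and above free RNA. Of the 12 highest such genes Fyb, an adaptor of immune cells, stood at 40.0 in metastasis and 8.38 in naive members (2.26) but was too sparse to measure in clusters 0 to 3. Fyb was not above free RNA where barcodes of 100 to 300 UMIs stood for it. Rnf213, a large ubiquitin ligase that interferon also induces, stood at 36.4 and 11.7 (1.63). Syk, a kinase of immune receptor signalling, stood at 72.4 and 43.6 (0.73, 0.38 to 1.09), with 15.6 and 3.68 in free RNA, and its ratio in clusters 0 to 3 was 0.65. Enpp4, an ectonucleotidase family gene, stood at 64.7 and 39.6 (0.71; 1.09 in clusters 0 to 3). Zadh2 stood at 40.5 and 22.1 (0.87), and Acss3, an acyl-CoA synthetase gene, at 30.3 and 16.8 (0.85; 1.08 in clusters 0 to 3).

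Of the 12 lowest genes in metastasis, 3 owed their naive level to 1 barcode. S100a9, S100a8 and Retnlg, all neutrophil genes, had 531, 465 and 105 UMIs in naive members, against 2, 5 and 0 in metastasis members, and 528, 462 and 104 of the naive UMIs came from 1 barcode. The potassium channel gene Kcnk2 (8.21 in metastasis and 33.5 in naive members, -2.03) and the lipid phosphatase gene Plpp3 (147 and 274, -0.90) were lower over all members. In clusters 0 to 3 their log2 ratios were -0.84 and -0.28. Tril, Npas3, Ntm and Ccdc189 had log2 ratios of -1.51, -0.99, -0.92 and -0.88 over all members. In clusters 0 to 3 they were -0.32, 0.51, -0.42 and -0.19, and each counting interval there spanned 0. That of Npas3 ran from -0.45 to 1.46. Cluster 7, which lies outside that set, held 0 metastasis and 18 naive members, and 18 of these met the astrocyte limit.

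For 2 genes of the 12 lowest the ratio was as large within clusters 0 to 3. Fam217a stood at 12.3 in metastasis and 29.2 in naive members (-1.24, -1.96 to -0.58), with no UMI in free RNA, and its ratio was -1.64 (-2.58 to -0.79) in clusters 0 to 3. Podxl2, a podocalyxin-like sialomucin gene, stood at 13.3 and 26.1 (-0.97, -1.67 to -0.31), and its ratio was -1.24 in clusters 0 to 3. Both rest on fewer than 100 UMIs in each library.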

How the data were processed

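Counts of UMIs per gene and barcode were deposited by the authors as 1 unfiltered matrix per library. Alignment to GRCm38 and counting used STARsolo per the submitters' processing notes; its version and settings are not given in the sources used here. The libraries held 89193669 UMIs in metastasis and 69445557 in naive. Members, gene lists (23) and marker lists (19; 657 of 657 symbols were in the files) were chosen with earlier results of these data known.

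Kept barcodes had at least 1000 UMIs, 500 genes and at most 20% mitochondrial UMIs. Counts were summed over the cells of a set and divided by the set's total to give CPM. A gene was measured with at least 20 UMIs over both sets, and called at a 2-fold ratio with 10 CPM added. Medians of lists use that ratio. Ratios of single genes have nothing added, and their 95% intervals are exact conditional binomial intervals, which cover counting error only. With 1 library a group, no p-value was computed. Barcodes of 10 to 100 UMIs, summed, stood for free RNA (256869 counts in the metastasis library, 271390 in the naive one). The genes named were the 4 of the rule, the 12 highest and 12 lowest between libraries at 100 or more UMIs and above free RNA, 15 highest and 10 lowest against each other class, 20 highest against the rest, and up to 4 per list; other genes of the lists, and the genes of single clusters and pairs, were chosen after their values were seen. Names of classes were rebuilt from marker UMIs, since no annotation of the authors' was used here. A few genes that this rule names are not reported here.

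Clustering used 2000 variable genes, 20 components and 15 neighbours. Doublets were kept: scrublet marked 0 barcodes in metastasis, where its threshold lay above the highest score, and 855 of 13995 (6.11%) in naive. Ratio intervals were run on simulated Poisson counts, the model that the interval assumes, so UMIs clumped in single cells were not covered. Python 3.11.15, numpy 2.4.6, scipy 1.17.1, pandas 2.3.3, scanpy 1.11.5, matplotlib 3.10.9, R 4.3.3 and edgeR 4.0.16 (for TMM factors) were used.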

Additional observations from a re-analysis of the deposited data

How the results depend on the processing

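No paired analysis was possible because each group is 1 library. Leaving out called doublets was not run, since the caller marked 0 barcodes in metastasis; leaving out the 6% of barcodes with the highest doublet score, clusters 0 to 3 alone, and members of another class other than endothelial were added after seeing the data. The share of kept barcodes called Npy type was 3.76% in metastasis and 6.69% in naive with at least 2000 UMIs, 5.22% and 6.83% with at least 8 UMIs over Npy and Prss56, 4.21% and 4.89% without members that met another class's limit, 4.85% and 5.73% where endothelial was exempt, and 5.15% and 6.57% in clusters 0 to 3. It was lower in metastasis in each of these. The count of genes 2-fold higher in metastasis, 117, was 63 in clusters 0 to 3, 75 without the highest doublet scores, 52 at 100 or more UMIs, 73 with cells thinned to 1000 UMIs and 24 with 50 CPM added. The count 2-fold lower, 30, was 6, 10, 8 without members of another class, 7 with endothelial exempt, 11 with cells weighing the same, 19 thinned, 5 with 50 CPM added and 99 after free RNA was subtracted at the Ttr fraction. Against the Matn4 type, 218 higher became 50 with 50 CPM added and 394 thinned, and 105 lower became 60 with TMM factors, 25 with 50 CPM added and 64 at 100 or more UMIs. Against astrocytes, 524 and 930 became 217 and 226 with 50 CPM added. The interferon median stayed between 0.28 and 0.64 and that of MHC class I between 0.21 and 0.58 over 15 alternatives. Of these, the added amount and the higher minimum lower counts by construction; the cause of the others was not tested. The count 2-fold higher and above free RNA, 8, ranged from 0 to 18.

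Precision is limited by 1 library of 3 pooled brains in each group, by the shallow cells, and by the Matn4 type's few cells. An estimate of free RNA from empty droplets cannot tell RNA taken up or carried by a second cell in the same droplet from RNA made by the member. Genes near 20 UMIs cannot show a 2-fold difference beyond counting error in most cases.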
